A study of Homo sapiens with 14 samples.

Results

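The asparagine and aspartate tRNA loci, tRNA-Asn-GTT and tRNA-Asp-GTC, were taken from the crosslink clusters of TRMT2A, the human enzyme that methylates a uridine of the tRNA T-loop. All tRNA clusters whose name begins with 1 of these 2 isotypes were included, and clusters under 40 nt apart were joined into 1 locus. Of 563 clusters, 493 lay in tRNAs and 22 of those in the 2 isotypes, 12 in tRNA-Asn-GTT and 10 in tRNA-Asp-GTC. They gave 16 loci, 9 of tRNA-Asn-GTT and 7 of tRNA-Asp-GTC, among 248 tRNA loci and 316 loci of every type. Each count below is a cDNA given to a position on the strand of the locus, from 100 nt 5′ to 25 nt 3′ of its cluster. The clusters were called on these same FICC-Seq, iCLIP and miCLIP libraries and kept where several of the experiments had counts, so the presence of signal in these loci is not itself a finding, and loci without a cluster were not examined.

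Both isotypes read codons for acidic or amide amino acids through an anticodon that begins with G, a base that is exchanged for queuosine in the tRNAs for asparagine, aspartate, histidine and tyrosine. Each folds into an acceptor stem, a D arm, an anticodon arm and a T arm, and the T-loop begins with uridine 54, which TRMT2A converts to 5-methyluridine. Position 53 is the last base of the 5′ side of the T-stem, and position 58 is the T-loop adenosine that other enzymes methylate. A cDNA made across a UV crosslink usually stops before the linked base, which makes the recorded position the linked base, whereas after a catalytic crosslink the linked base is often copied, so that the study reads the base 3′ of the recorded position as the modified one and counts at 53 as uridine 54. Reverse transcription also stops at methylated A58 whatever protein is bound, and its part in the counts at 58 was not tested. Precursor tRNAs carry a 5′ leader and a 3′ trailer that are removed before the CCA end is added.

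The 14 libraries fall into 5 groups from 2 human cell lines: HEK293, an embryonic kidney line, and HAP1, a near-haploid line. In FICC-Seq (3 libraries per line) cells received 100 µM 5-fluorouracil for 24 h, so that the catalytic step itself tied the endogenous enzyme to its RNA, which an antibody to TRMT2A then pulled down, although the labels name the condition as untreated. In iCLIP (3 libraries per line) the same antibody was used after UV light, which links RNA to any bound protein surface. In miCLIP (2 HEK293 libraries) the cells carried a transfected FLAG-tagged TRMT2A whose catalytic glutamate was changed to alanine, recovered with an antibody to FLAG 24 h later. No library came from cells without TRMT2A. The study calls its replicates biological, but the labels do not say whether they were separate cultures, and p-values measure the spread between these libraries.

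Library totals ran from 7002 to 104605 counts, and 53.1 to 78.2% of the positions in a library held a single cDNA. The highest count at any position of these loci in 1 library was 120. The libraries form 3 sets by the library names kept in the file headers, namely FICC-Seq with iCLIP in HEK293, the same pair in HAP1, and miCLIP, so that cell line and set cannot be told apart and neither can miCLIP and its set. The labels give FICC-Seq HEK293 replicates 1 and 3 the same 5′ barcode. Confidence intervals below are exact (Clopper-Pearson, 95%) and cover counting error only.

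The mature sequences are shown because the count positions are read on them and because near-identical copies limit which locus a read can be given to. Written 5′ to 3′ on the sense strand from hg19, with positions 53, 54 and 58 in capitals, the gene at chr1:148248115-148248188 (plus strand) stands for the 6 identical tRNA-Asn-GTT-2 loci, tRNA-Asn-GTT-1-1 lies at chr1:161510031-161510104 (plus), tRNA-Asn-GTT-6-1 at chr1:149230570-149230643 (minus) and tRNA-Asn-GTT-7-1 at chr1:148000805-148000878 (plus):
tRNA-Asn-GTT-2-1: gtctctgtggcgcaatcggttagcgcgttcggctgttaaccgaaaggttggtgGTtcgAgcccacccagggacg
tRNA-Asn-GTT-1-1: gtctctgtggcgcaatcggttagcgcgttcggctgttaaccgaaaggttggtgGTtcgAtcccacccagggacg
tRNA-Asn-GTT-6-1: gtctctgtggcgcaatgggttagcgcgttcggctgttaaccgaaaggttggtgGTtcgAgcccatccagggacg
tRNA-Asn-GTT-7-1: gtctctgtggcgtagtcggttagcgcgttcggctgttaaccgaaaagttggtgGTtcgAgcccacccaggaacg

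Of the aspartate genes, chr6:27447453-27447524 (plus) stands for the 5 identical tRNA-Asp-GTC-2 loci, with tRNA-Asp-GTC-3-1 at chr6:27551236-27551307 (minus) and tRNA-Asp-GTC-4-1 at chr9:77517990-77518061 (minus):
tRNA-Asp-GTC-2-6: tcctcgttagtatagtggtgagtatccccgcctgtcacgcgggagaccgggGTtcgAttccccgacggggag
tRNA-Asp-GTC-3-1: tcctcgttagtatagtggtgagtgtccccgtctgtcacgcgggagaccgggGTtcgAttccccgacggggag
tRNA-Asp-GTC-4-1: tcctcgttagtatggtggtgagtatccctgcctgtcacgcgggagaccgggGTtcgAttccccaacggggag

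All 16 loci had T at 54, G at 53 and A at 58. Counted from the 5′ end of the gene, tRNA-Asn-GTT-1-1 differed from the tRNA-Asn-GTT-2 copies by G60T, which is tRNA position 59 in the T-loop, next to A58. tRNA-Asn-GTT-6-1 differed by C17G and C65T, and tRNA-Asn-GTT-7-1 by C13T, A15G, G46A and G71A. tRNA-Asp-GTC-3-1 differed from the tRNA-Asp-GTC-2 copies by A24G and C31T, both 5′ of the T arm, so that from position 54 to its end it was the same as theirs. tRNA-Asp-GTC-4-1 differed by A14G, C29T and G64A, the last of which left 4 paired bases in a T-stem that had 5 in every other locus of the 2 isotypes. The stretch from 54 to the 3′ end stood at 10 places in hg19 for the tRNA-Asn-GTT-2 loci and at 12 for the tRNA-Asp-GTC-2 loci and tRNA-Asp-GTC-3-1, and at 1 place for each of the 4 other loci.

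The authors kept reads that mapped to 1 place, so a cDNA that starts in a T-loop shared by several copies can be told from them only by bases beyond the end of the gene. The genomic trailers that follow the 6 identical asparagine genes are shown for this reason, with the bases that stand where the CCA end would be added in capitals:
tRNA-Asn-GTT-2-1: CCTctttgagct
tRNA-Asn-GTT-2-2: GCTgaaatttta
tRNA-Asn-GTT-2-3: CGCtctcctttt
tRNA-Asn-GTT-2-4: GTCagtgcttct
tRNA-Asn-GTT-2-5: CTAtgacctttt
tRNA-Asn-GTT-2-6: CGTggtgacttt
At tRNA-Asn-GTT-2-1 and tRNA-Asn-GTT-2-5 the trailer matched CCA at 2 of its 3 bases, and at the other identical copies at 1 base or none. Values of single identical copies are therefore uncertain, while the isotype sums leave out reads that fit several places equally well. How many mature or precursor tRNA reads were left out was not tested.

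In the human gene annotation (GENCODE lifted to hg19), tRNA-Asn-GTT-2-6 at chr19:1383562-1383635 (plus) lay in an untranslated region of NDUFS7, which encodes a subunit of mitochondrial complex I. tRNA-Asp-GTC-2-11 at chr17:8125556-8125627 (minus) lay in an exon of the non-coding RNA LINC00324. tRNA-Asn-GTT-1-1, tRNA-Asn-GTT-2-2 and tRNA-Asp-GTC-2-6 lay in introns of non-coding genes on their own strand, tRNA-Asn-GTT-6-1 and tRNA-Asp-GTC-2-7 lay opposite such genes, and the other 9 loci overlapped no annotated gene. Antisense counts did not exceed 2 at any locus over the 14 libraries.

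Asparagine tRNAs took more of the FICC-Seq signal than aspartate tRNAs in every FICC-Seq library. In HEK293, tRNA-Asn-GTT had 520, 324 and 571 counts and tRNA-Asp-GTC had 303, 250 and 365 in replicates 1, 2 and 3. In HAP1, tRNA-Asn-GTT had 432, 456 and 785 counts and tRNA-Asp-GTC 314, 399 and 589. Asparagine exceeded aspartate in 6 of 6 FICC-Seq libraries, although 9 loci were summed for the first and 7 for the second. In iCLIP the counts were far lower, 89, 58 and 50 in HEK293 and 99, 91 and 56 in HAP1 for tRNA-Asn-GTT, against 87, 58 and 54 and then 61, 82 and 50 for tRNA-Asp-GTC. Here the isotypes lay close together, except in iCLIP HAP1 replicate 1. The miCLIP libraries gave 497 and 1452 counts for tRNA-Asn-GTT and 540 and 1241 for tRNA-Asp-GTC, so that the higher isotype differed between the replicates.

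As counts per 1000000 of the whole library (CPM), tRNA-Asn-GTT stood at 20760 ± 1010 (SD, n = 3) in FICC-Seq HEK293 and 15782 ± 3897 (n = 3) in FICC-Seq HAP1, and tRNA-Asp-GTC at 13752 ± 1638 and 12254 ± 2495. In iCLIP the CPM were 6503 ± 1211 and 8540 ± 1402 for asparagine and 6655 ± 1459 and 6822 ± 1668 for aspartate, in HEK293 and HAP1. In miCLIP they were 13308 ± 810 and 12851 ± 1396 (n = 2). In CPM, every FICC-Seq library stood above every iCLIP library for both isotypes. Taken singly as shares of the counts in all tRNA loci, both isotypes overlapped between the methods in HAP1 and not in HEK293. In HAP1, asparagine held 1.63% in FICC-Seq replicate 2 and 1.81% in iCLIP replicate 1. Aspartate held 1.40% in FICC-Seq HAP1 replicate 1 and 1.42% in iCLIP HAP1 replicate 2. As shares of the counts in all tRNA loci, the 2 isotypes together made 4.13% ± 0.123 in FICC-Seq HEK293, 3.58% ± 0.696 in FICC-Seq HAP1, 2.45% ± 0.251 in iCLIP HEK293, 2.73% ± 0.398 in iCLIP HAP1 and 4.62% ± 0.239 in miCLIP.

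The log2 ratio of asparagine to aspartate counts averaged 0.60 ± 0.206 in FICC-Seq HEK293, 0.36 ± 0.143 in FICC-Seq HAP1, -0.03 ± 0.0754 in iCLIP HEK293, 0.34 ± 0.313 in iCLIP HAP1 and 0.05 ± 0.245 in miCLIP. FICC-Seq exceeded iCLIP by 0.32 on average within cell lines (two-sided exact permutation test within cell lines, p = 0.055, adjusted p = 0.116 over the 13 permutation tests made), which did not pass the threshold of 0.05 except when iCLIP HAP1 replicate 1 was left out (0.41, adjusted p = 0.0325). Without the locus of highest signal in each isotype the difference turned to -0.16, and without tRNA-Asp-GTC-3-1 alone to -0.31, so that the ratio was no longer higher in FICC-Seq. HAP1 exceeded HEK293 by 0.06 on average within methods (exact permutation p = 0.735, adjusted p = 0.735).

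Within the tRNA, FICC-Seq signal of both isotypes sat on the base before uridine 54 and on uridine 54 itself, and asparagine tRNAs had a further peak on adenosine 58 that was small in aspartate tRNAs. Over the FICC-Seq HEK293 libraries, 707 of 1415 tRNA-Asn-GTT counts (50.0%) fell on 53, 419 (29.6%) on 54 and 213 (15.1%) on 58, while no other position held over 1%. For tRNA-Asp-GTC, 584 of 918 counts (63.6%) fell on 53, 262 (28.5%) on 54 and 20 (2.18%) on 58. In FICC-Seq HAP1 the same 3 positions held 912, 434 and 202 of 1673 asparagine counts and 861, 332 and 11 of 1302 aspartate counts. Thus 54 came behind 53 in both isotypes and lines. The highest single position, summed over the 6 FICC-Seq libraries, was 53 at 14 of the 16 loci and 54 at tRNA-Asn-GTT-2-1 and at tRNA-Asn-GTT-6-1. The order was close at tRNA-Asn-GTT-2-1, with 179 counts on 54 and 176 on 53, and it differed between the lines (129 on 54 and 116 on 53 in HEK293, 50 and 60 in HAP1), while tRNA-Asn-GTT-6-1 had 19 counts in all.

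**Figure D1:**
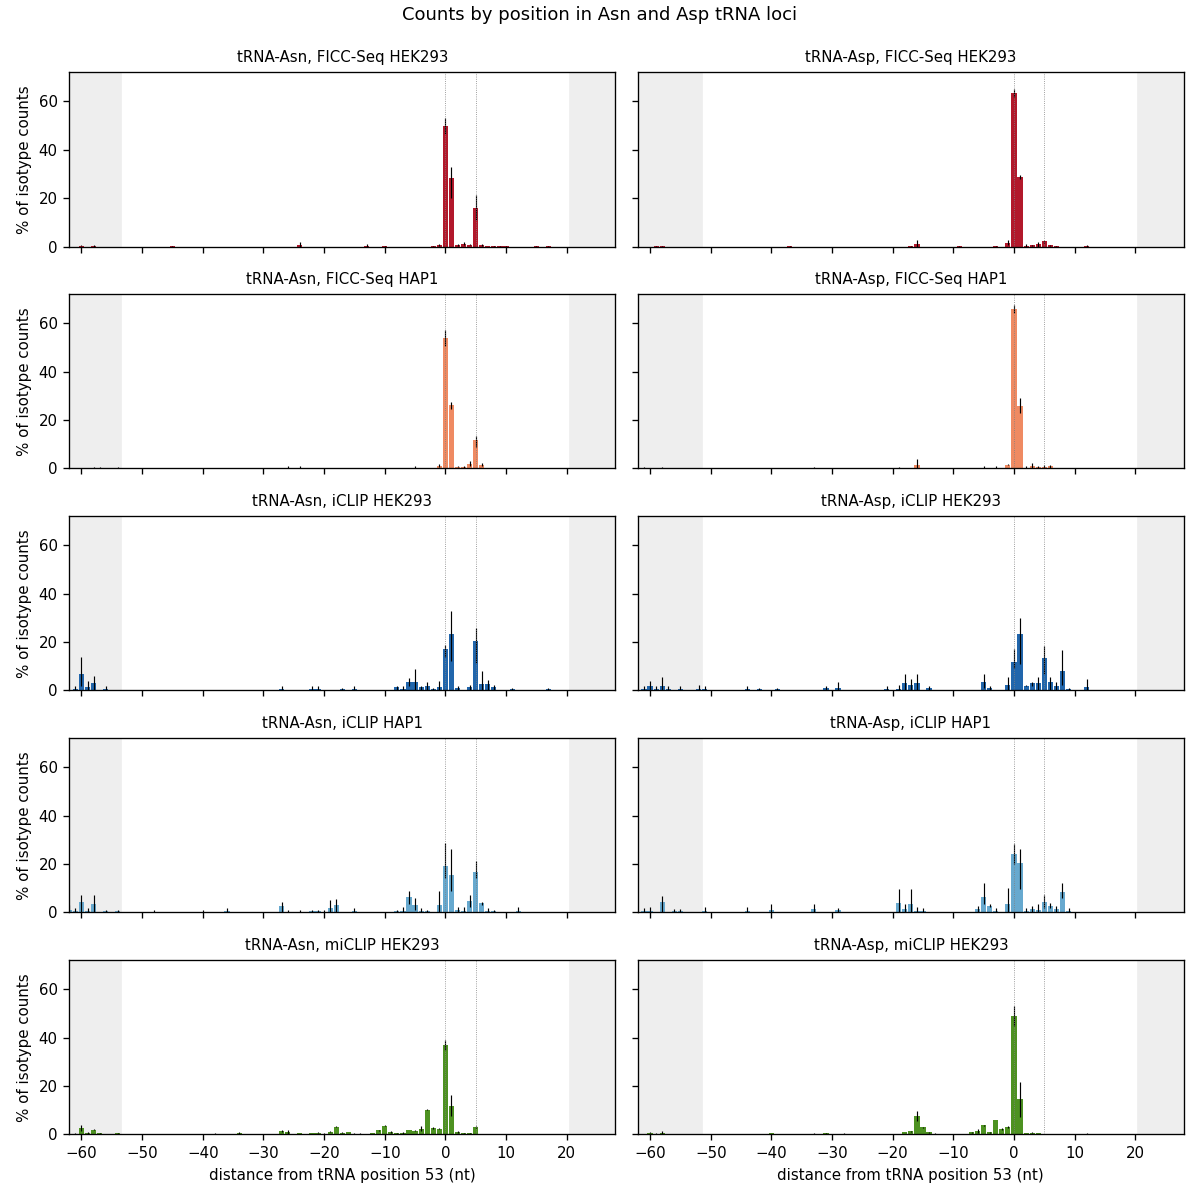
Share of each isotype's counts (percent, vertical axis) by position along the tRNA, in nt from position 53 (horizontal axis), for tRNA-Asn-GTT (left) and tRNA-Asp-GTC (right) in the 5 library groups, as group means with lines from the lowest to the highest library and the leader and trailer shaded. FICC-Seq counts pile up at 53 and 54, with an added asparagine peak at 58, while iCLIP and miCLIP counts spread further over the tRNA and its leader.

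The share of counts at 53 and 54 together was higher in aspartate than in asparagine tRNAs in all FICC-Seq libraries. It was 79.2, 70.1 and 85.3% for tRNA-Asn-GTT and 92.7, 90.0 and 93.2% for tRNA-Asp-GTC in FICC-Seq HEK293 replicates 1, 2 and 3. In FICC-Seq HAP1 it was 78.0, 80.7 and 81.7% for asparagine and 94.9, 87.2 and 92.9% for aspartate. No asparagine value reached the lowest aspartate value, and the difference averaged -12.7 percentage points (asparagine minus aspartate, two-sided exact permutation test over the 6 libraries, p = 0.0312, the smallest p that 6 pairs allow, adjusted p = 0.0812). The same sign in 6 of 6 libraries thus did not pass after adjustment. In iCLIP the shares of asparagine ranged from 23.2 to 54.9% and those of aspartate from 20.4 to 53.7%, with a mean difference of -2.71 points (exact permutation p = 0.719, adjusted p = 0.735), and without iCLIP HAP1 replicate 3 the difference turned to 1.31 points. Without tRNA-Asp-GTC-3-1 it was -9.34 points (exact permutation p = 0.0312, adjusted p = 0.058). Across the other tRNA loci in which the T arm could be numbered (221 of 232) the share was 70.1% ± 5.42 in FICC-Seq HEK293 and 65.2% ± 3.59 in FICC-Seq HAP1, below both isotypes' means of 78.2% ± 7.67 and 80.1% ± 1.89 for asparagine and 92.0% ± 1.71 and 91.7% ± 3.98 for aspartate.

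Adenosine 58 separated the isotypes the other way. In FICC-Seq HEK293 its share of tRNA-Asn-GTT counts was 15.6, 21.3 and 11.03%, against 2.31, 1.60 and 2.47% of tRNA-Asp-GTC counts. In FICC-Seq HAP1 it was 13.2, 8.99 and 13.2% against 0.318, 0.501 and 1.36%. The lowest asparagine share stood above the highest aspartate share, with a mean difference of 12.46 points (exact permutation p = 0.0312, the smallest possible, adjusted p = 0.0812, higher in 6 of 6 libraries). In iCLIP the difference was 9.65 points (exact permutation p = 0.0625, adjusted p = 0.116), with asparagine at 20.5% ± 8.04 and 16.6% ± 4.17 and aspartate at 13.5% ± 5.95 and 4.32% ± 2.85 in HEK293 and HAP1. Without tRNA-Asp-GTC-3-1 it was 14.4 points (exact permutation p = 0.0312, adjusted p = 0.058). In miCLIP asparagine had 3.42 and 2.69% at 58 and aspartate 0.185 and 0.161%, the latter from 1 and 2 counts.

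Ranked among the 39 anticodon groups with at least 100 FICC-Seq counts, tRNA-Asp-GTC had the second lowest share at 58 (1.40%) and tRNA-Asn-GTT ranked 18 from the lowest (13.4%). For the share at 53 and 54, aspartate (91.8%) ranked 38 of 39 from the lowest and asparagine (80.1%) ranked 30. Among 38 groups in iCLIP, aspartate again ranked 2 for position 58 and 38 for positions 53 and 54, and asparagine ranked 8 and 37. The other tRNA loci together had 18.3% ± 1.9 and 20.1% ± 2.79 of their counts at 58 in FICC-Seq HEK293 and HAP1, against 15.97% ± 5.14 and 11.8% ± 2.44 for asparagine and 2.13% ± 0.462 and 0.726% ± 0.555 for aspartate. The libraries of asparagine and of the other loci overlapped in HEK293 and not in HAP1, where asparagine reached 13.25% at most and the other loci had at least 16.85%, and aspartate lay below both in each line. These ranks describe summed counts and carry no test.

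**Figure D2:**
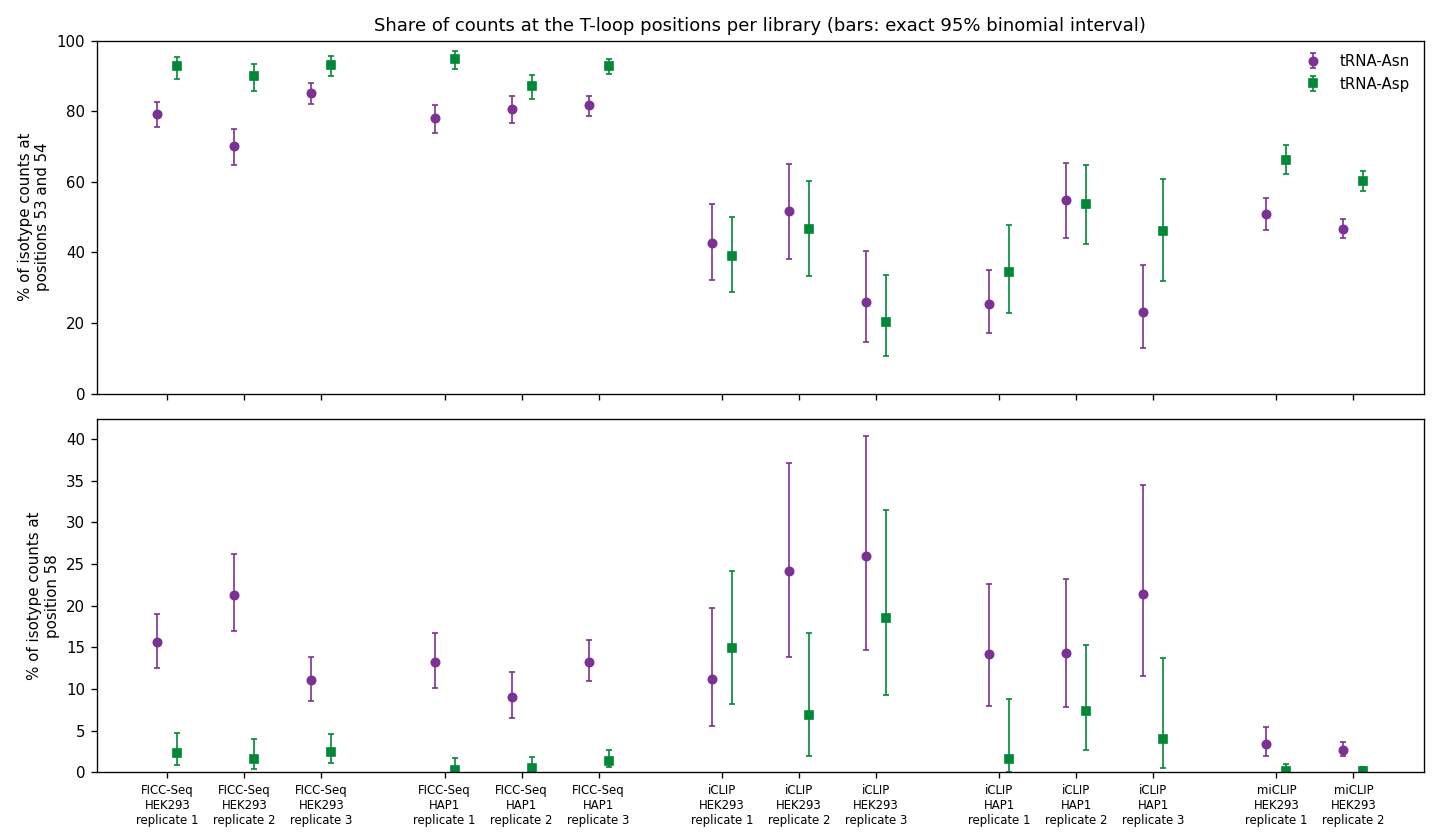
Percent of each isotype's counts at positions 53 and 54 (upper panel) and at position 58 (lower panel), with a point per library and isotype and exact 95% intervals as bars. Asparagine and aspartate points do not overlap in FICC-Seq, where aspartate has the higher share at 53 and 54 and the lower share at 58.

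The asparagine signal at 58 was uneven among loci. tRNA-Asn-GTT-1-1, the copy with T at position 59, had 160 of 558 FICC-Seq counts at 58 (28.7%, interval 25.0 to 32.6%), with shares between 20.5 and 39.1% in single libraries. The 5 identical loci from tRNA-Asn-GTT-2-2 to tRNA-Asn-GTT-2-6 had 247 of 2137 counts there (11.6%, interval 10.2 to 12.99%), each between 9.59% and 14.2%. tRNA-Asn-GTT-2-1, identical to these 5 in the mature sequence, had 5 of 369 (1.36%, interval 0.441 to 3.13%), so that copies of 1 sequence differed beyond counting error. The tRNA-Asp-GTC-2 loci, which also have T at 59, had 23 of 1807 counts at 58 (1.27%, interval 0.808 to 1.90%). The stretch from 54 to the 3′ end stands at 1 place in hg19 for tRNA-Asn-GTT-1-1, so a cDNA that covers all of it needs no trailer base. The same stretch stands at 10 places for the tRNA-Asn-GTT-2 loci and at 12 for the tRNA-Asp-GTC-2 loci, whose T-loop cDNAs do need trailer bases. A cDNA recorded at 58 covers a shorter stretch, and the places of that stretch in hg19 were not counted. The shares may therefore come from unlike sets of reads, and the part of this in the contrasts was not tested. These contrasts among single loci were chosen after their values were seen.

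tRNA-Asn-GTT-2-1 also stood apart in how its counts split between 53 and 54. Of its FICC-Seq counts at these positions, 50.4% (interval 45.1 to 55.7%) lay on 54, against 25.5 to 39.8% at the other tRNA-Asn-GTT loci with over 19 counts. In miCLIP the same locus had 84 counts on 54 and 67 on 53, while 53 was the higher position at the 15 other loci. Its FICC-Seq counts were 102, 17 and 132 in HEK293 and 37, 31 and 50 in HAP1, or 4300, 1064 and 4643 CPM and 1245, 861 and 1283 CPM. FICC-Seq HEK293 replicates 1 and 3, which are labelled with the same barcode, were thus about as high as each other and replicate 2 lay within the range of the HAP1 libraries. Whether the shared barcode or the partial match of its trailer to CCA has a part in these values was not tested.

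Aspartate loci were more alike. Summed over the 6 FICC-Seq libraries, the share at 53 and 54 lay between 88.3% (tRNA-Asp-GTC-4-1) and 95.5% (tRNA-Asp-GTC-2-10). At position 58, tRNA-Asp-GTC-2-7, tRNA-Asp-GTC-2-10 and tRNA-Asp-GTC-4-1 had 0 of 222, 0 of 177 and 0 of 111 counts, for which the intervals reach up to 1.65%, 2.06% and 3.27%, and tRNA-Asp-GTC-3-1 had the highest share with 8 of 302 (2.65%). In iCLIP, tRNA-Asp-GTC-3-1 had 27 of 166 counts there (16.3%, interval 11 to 22.8%), while the 5 tRNA-Asp-GTC-2 loci had 9 of 183 (4.92%, interval 2.27 to 9.13%), although its sequence from 54 onward is theirs. tRNA-Asp-GTC-4-1, with 1 pair fewer in its T-stem, had 10 FICC-Seq counts on 54 and 88 on 53, so that 54 held 10.2% of both (interval 5.00 to 17.97%), below every other aspartate locus (25.8 to 31.9%). All 10 came from HAP1, where 47 counts lay on 53, and HEK293 had 0 on 54 and 41 on 53. In iCLIP 3 counts lay on 54 and 23 on 53 (11.5%), but in miCLIP 29 lay on 54 and 66 on 53 (30.5%), the highest share of any aspartate locus there (13.5 to 26.7% at the others).

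**Figure D3:**
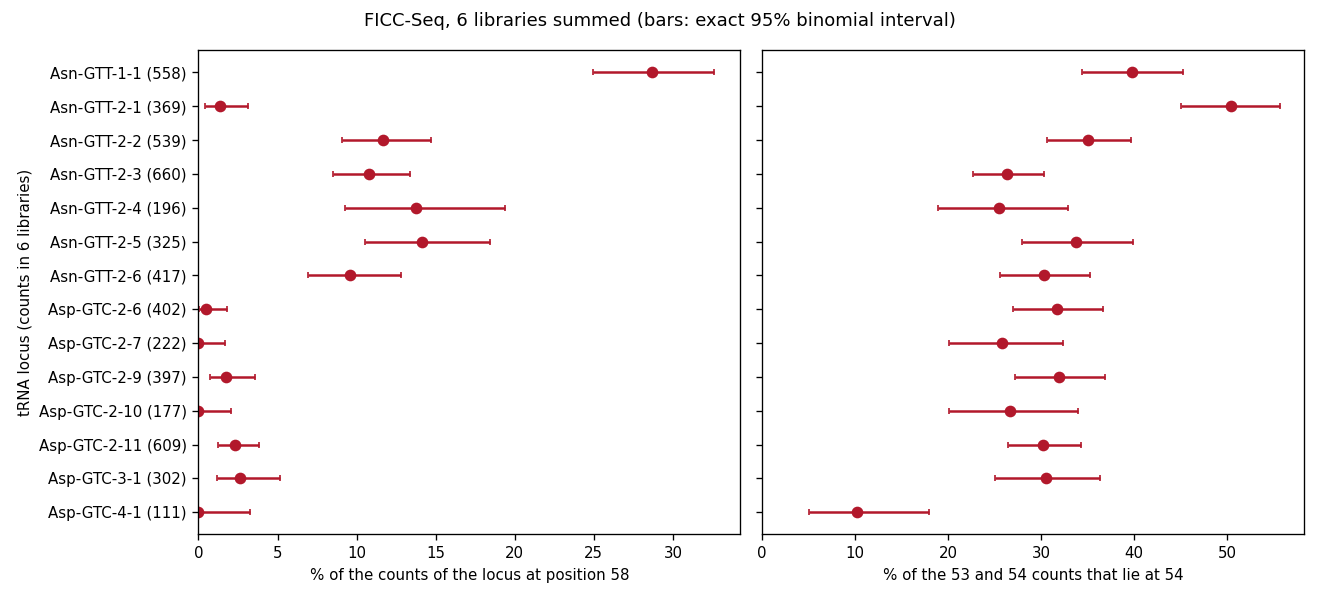
Percent of counts at position 58, and percent of the counts at 53 and 54 that lie on 54, for the 6 FICC-Seq libraries summed, with exact 95% intervals as bars and each locus's counts in brackets (tRNA-Asn-GTT-6-1 and tRNA-Asn-GTT-7-1, with 19 and 5 counts, are left out). tRNA-Asn-GTT-1-1 has the highest share at 58, tRNA-Asn-GTT-2-1 the highest share on 54 and tRNA-Asp-GTC-4-1 the lowest share on 54.

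UV crosslinking placed far fewer of the counts at 53 and 54 than 5-fluorouracil did. Averaged within cell lines, FICC-Seq exceeded iCLIP in this share by 41.9 percentage points in tRNA-Asn-GTT and by 51.8 points in tRNA-Asp-GTC (two-sided exact permutation within cell lines, p = 0.005 for each, the smallest possible, adjusted p = 0.0217), and no iCLIP library reached any FICC-Seq library. With replicate numbers as blocks, neither difference passed after adjustment, at the smallest p that the exact paired permutation allows. Asparagine minus aspartate, these differences stood -9.95 points apart, which did not pass (exact permutation p = 0.08, adjusted p = 0.13), although it did without iCLIP HAP1 replicate 3 (-13.1 points, adjusted p = 0.0488). At 58, FICC-Seq minus iCLIP was -7.46 points in aspartate tRNAs (exact permutation p = 0.005, adjusted p = 0.0217). This call was lost on leaving out any one FICC-Seq HEK293 library (adjusted p = 0.108 to 0.116), and with replicate numbers as blocks. It was also lost without tRNA-Asp-GTC-3-1, which held 27 of the aspartate iCLIP counts at 58, since the 6 other loci had 9 of 226 (3.98%) in iCLIP and 23 of 1918 (1.199%) in FICC-Seq and the difference was then -2.91 points (exact permutation p = 0.03, adjusted p = 0.058). In asparagine tRNAs the difference was -4.65 points (exact permutation p = 0.13, adjusted p = 0.154).

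Of the counts at 53 and 54, the part on 54 was 35.9% ± 6.6 and 32.9% ± 2.63 for asparagine and 31.1% ± 1.02 and 28.1% ± 2.17 for aspartate in FICC-Seq HEK293 and HAP1. In iCLIP it was 55.8% ± 8.78 and 43.5% ± 4.79 for asparagine and 64.7% ± 11.1 and 44.3% ± 14.3 for aspartate. The other tRNA loci had 77.2% ± 3.29 and 73.5% ± 1.12 on 54 in iCLIP, against 33.0% ± 2.74 and 35.1% ± 1.88 in FICC-Seq. With UV light the highest position was 54 at 8 of the 16 loci, 53 at 3, 58 at 3 and elsewhere at 2, namely in the leader of tRNA-Asn-GTT-2-3 and 27 nt 5′ of position 53 in tRNA-Asn-GTT-7-1, where 53 held the same 4 counts.

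Levels and their order across methods differed from locus to locus within both isotypes. In CPM, tRNA-Asn-GTT-1-1 held 3246, 4005 and 3025 in FICC-Seq HEK293, 2456, 2444 and 4364 in FICC-Seq HAP1, 1262, 2254 and 1143 in iCLIP HEK293, 3086, 3080 and 1244 in iCLIP HAP1, and 3562 and 3537 in miCLIP. The HAP1 values of the methods overlapped at this locus. tRNA-Asn-GTT-2-3, at chr10:22518438-22518511 (minus), held 4595, 3504 and 4116, then 3566, 2916 and 4287 in FICC-Seq, 1262, 1628 and 2714, then 1906, 1274 and 1493 in iCLIP, and 1076 and 1663 in miCLIP, so that each FICC-Seq library stood above the rest. tRNA-Asn-GTT-2-2, at chr1:161397867-161397940 (minus), held 3541, 4630 and 3131, then 2590, 1722 and 3927 in FICC-Seq, 115, 250 and 571, then 817, 319 and 747 in iCLIP, and 1794 and 1176 in miCLIP. Its lowest FICC-Seq library had over 2 times the CPM of its highest iCLIP library.

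Among aspartate loci, tRNA-Asp-GTC-3-1 went the other way in HEK293, with 1813, 2002 and 2075 CPM in FICC-Seq against 2409, 3130 and 4570 in iCLIP. In HAP1 it held 1379, 1638 and 1746 CPM in FICC-Seq and 1543, 2549 and 3235 in iCLIP, where the methods overlapped, and 1973 and 1778 in miCLIP. tRNA-Asp-GTC-2-11 held 3373, 3879 and 3236, then 3061, 3194 and 4338 in FICC-Seq, 631, 1252 and 857, then 908, 1168 and 871 in iCLIP, and 1614 and 1549 in miCLIP. Its methods did not overlap. tRNA-Asp-GTC-2-6 held 1771, 2878 and 2392, then 1749, 2499 and 2670 in FICC-Seq, 344, 751 and 571, then 454, 1168 and 373 in iCLIP, and 3716 and 3136 in miCLIP, which was the highest of the methods there. These 6 loci had the highest mean CPM of their isotype over the 14 libraries, from 1748 to 2765.

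For tests per locus, all loci with at least 5 counts in at least 2 libraries entered 1 limma fit, 311 of 316 loci and all 16 of the asparagine and aspartate loci, and log2 fold changes were scaled by trimmed means of M-values (TMM). In HEK293, 6 of the 16 loci were higher in FICC-Seq than in iCLIP at an adjusted p under 0.05, against 19.0% of all tested loci, and 2 were lower, against 30.5% of all. The higher loci were tRNA-Asn-GTT-2-2 (log2 fold change 2.89 ± 0.627 SE, adjusted p = 0.00115), tRNA-Asn-GTT-2-6 (2.56), tRNA-Asp-GTC-2-7 (2.35), tRNA-Asp-GTC-2-9 (1.48), tRNA-Asp-GTC-2-6 (1.28) and tRNA-Asp-GTC-2-11 (1.18). All of them are copies identical within their isotype, as are 6 of the 9 asparagine and 5 of the 7 aspartate loci. The lower loci, tRNA-Asn-GTT-7-1 (-2.96 ± 0.824, adjusted p = 0.00658) and tRNA-Asp-GTC-3-1 (-1.42 ± 0.303, adjusted p = 0.00101), each had a mature sequence found once in hg19. So did tRNA-Asn-GTT-1-1, tRNA-Asn-GTT-6-1 and tRNA-Asp-GTC-4-1, which were not called. This split by copies carries no test. The call of tRNA-Asn-GTT-7-1 lies near the floor, with 2 counts in FICC-Seq HEK293 against 6 in iCLIP HEK293. The median log2 fold change was 0.62 over the 16 loci and -0.39 over all tested loci. Without iCLIP HEK293 replicate 1 the number of called loci fell from 8 to 5. At its lowest, it fell further when a replicate number was left out of all groups.

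In HAP1, 5 of the 16 loci were higher in FICC-Seq, against 16.4% of all tested loci, and 3 were lower, against 28.6% of all. tRNA-Asn-GTT-2-6 (log2 fold change 2.36), tRNA-Asp-GTC-2-9 (1.81), tRNA-Asn-GTT-2-2 (1.65), tRNA-Asp-GTC-2-6 (1.33) and tRNA-Asp-GTC-2-11 (1.31) were higher, and each of these had been called higher in HEK293 as well. tRNA-Asn-GTT-7-1 (-4.33 ± 0.805, adjusted p = 0.000392), tRNA-Asn-GTT-6-1 (-2.87) and tRNA-Asp-GTC-3-1 (-0.98, adjusted p = 0.0182) were lower. Near the floor again, tRNA-Asn-GTT-7-1 had 3 counts in FICC-Seq HAP1 against 10 in iCLIP HAP1, and tRNA-Asn-GTT-6-1 had 10 against 12. The median was 0.61 over the 16 loci and -0.34 over all, and without iCLIP HAP1 replicate 3 the number of called loci fell from 8 to 5. As in HEK293, it fell further at its lowest when a replicate number was left out of all groups. The interaction of method and cell line passed at none of the 16 loci and at 0% of all 311 in limma, with 2 of the 16 and 29 of all under an unadjusted p of 0.05.

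The scaling set part of these directions. With library totals in place of TMM the median of all loci moved by 0.78 in HEK293 and 0.45 in HAP1. The split over all loci then went from 59 higher and 95 lower to 96 and 54 in HEK293, and from 51 and 89 to 67 and 66 in HAP1. Among the 16 loci, 10 were then higher and 1 lower in HEK293, and 6 higher and 2 lower in HAP1. The lower call of tRNA-Asp-GTC-3-1 was lost (-0.61, adjusted p = 0.15 in HEK293 and -0.52, adjusted p = 0.277 in HAP1). tRNA-Asn-GTT-6-1 and tRNA-Asp-GTC-4-1 in HEK293, and tRNA-Asn-GTT-1-1 and tRNA-Asp-GTC-2-10 in HAP1, none of them called in that line with TMM, changed sign.

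**Figure D4:**
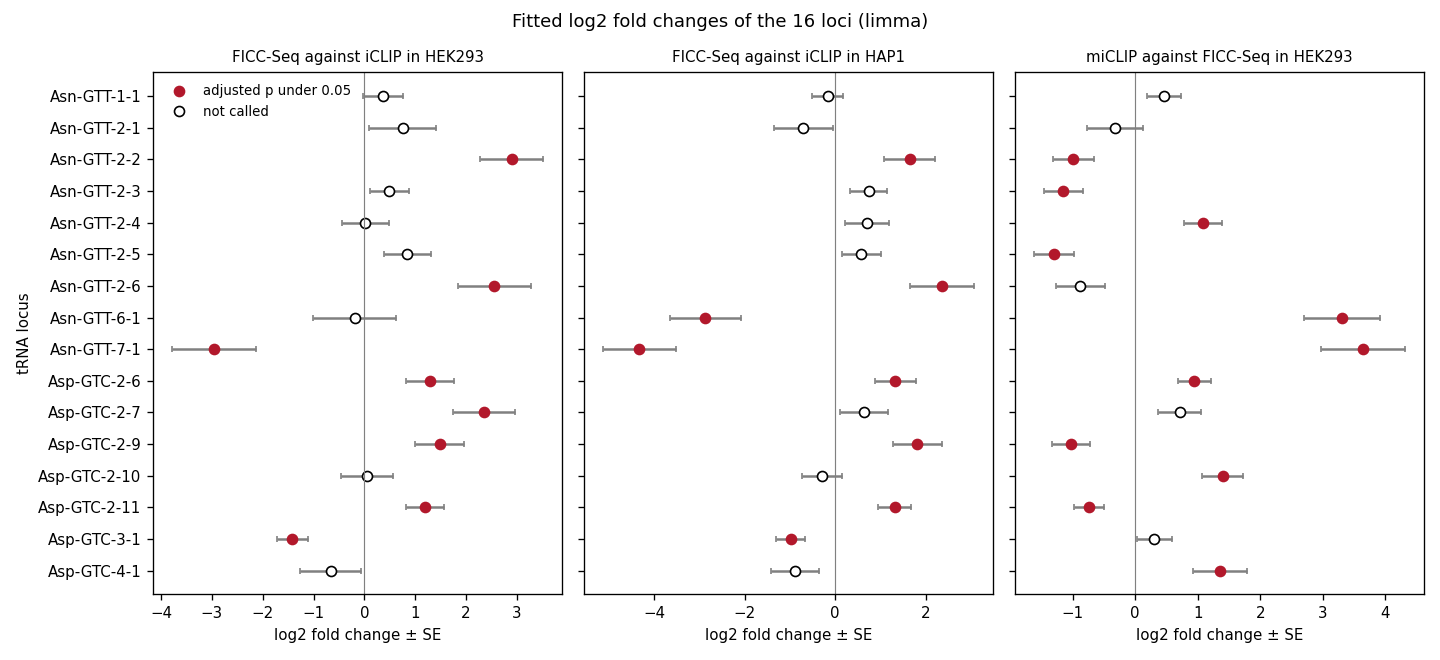
Log2 fold change of each of the 16 loci (horizontal axis) in FICC-Seq against iCLIP in HEK293 and in HAP1, and in miCLIP against FICC-Seq in HEK293, from the limma fit scaled by TMM, with bars of 1 SE and filled points where the adjusted p was under 0.05. tRNA-Asn-GTT-7-1 is lower in FICC-Seq than in both other methods, on 2 FICC-Seq counts in HEK293 and 3 in HAP1. tRNA-Asn-GTT-2-2 and tRNA-Asn-GTT-2-6 lie higher in FICC-Seq than in iCLIP in both cell lines.

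Between the cell lines no asparagine or aspartate locus passed in FICC-Seq (0 of 16 in limma, 1 under an unadjusted p of 0.05), against 11.3% of all tested loci in either direction. Log2 fold changes of HAP1 against HEK293 ran from -1.23 to 0.25 with a median of -0.03. The lowest was that of tRNA-Asn-GTT-2-1 (-1.23 ± 0.457, adjusted p = 0.0931), which passed with library totals (-1.49, adjusted p = 0.0183) and when FICC-Seq HEK293 replicate 2 was left out. Its HAP1 CPM of 861 to 1283 overlapped that replicate and not the 2 that share a barcode.

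miCLIP, with the catalytic mutant, gave these loci another order. Against FICC-Seq in HEK293, 6 of the 16 loci were higher, against 43.4% of all tested loci, and 5 were lower, against 31.2% of all. tRNA-Asn-GTT-7-1 (log2 fold change 3.64 ± 0.677, adjusted p = 9.17e-05) and tRNA-Asn-GTT-6-1 (3.31 ± 0.611, adjusted p = 8.94e-05) rose most, with tRNA-Asp-GTC-2-10 (1.40), tRNA-Asp-GTC-4-1 (1.36), tRNA-Asn-GTT-2-4 (1.08) and tRNA-Asp-GTC-2-6 (0.95). However, tRNA-Asn-GTT-7-1 reached 5 counts in the 2 miCLIP libraries alone and so passed the count filter only through them. The filter thus favoured a higher value in miCLIP, and the call of this locus gives no support for a difference. The lower loci were tRNA-Asn-GTT-2-5 (-1.30), tRNA-Asn-GTT-2-3 (-1.15), tRNA-Asp-GTC-2-9 (-1.03), tRNA-Asn-GTT-2-2 (-0.99) and tRNA-Asp-GTC-2-11 (-0.74). The median was 0.38 over the 16 loci and 0.46 over all. With library totals the median of all loci moved by -0.42. Then 3 of the 16 were higher and 6 lower, against 116 higher and 111 lower of all 311 tested loci.

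tRNA-Asn-GTT-6-1 and tRNA-Asn-GTT-7-1, singled out after their values were seen, carried most of the differences in their mature sequence among the asparagine loci. In FICC-Seq tRNA-Asn-GTT-6-1 had 2, 3 and 4 counts in HEK293 and 1, 8 and 1 in HAP1, and tRNA-Asn-GTT-7-1 had 1, 0 and 1 and then 3, 0 and 0. In iCLIP they had 14 and 16 counts in all, and in miCLIP 49 and 111 for tRNA-Asn-GTT-6-1 and 16 and 46 for tRNA-Asn-GTT-7-1. Of the miCLIP counts of tRNA-Asn-GTT-7-1, 37 of 62 lay on 53, and of those of tRNA-Asn-GTT-6-1, 66 of 160. The miCLIP libraries are the deepest here, and in CPM both loci were higher in each of them than in every FICC-Seq library.

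The share of counts at 53 and 54 in miCLIP was 50.9 and 46.8% for asparagine and 66.3 and 60.2% for aspartate. These values were 29.4 and 28.7 points below the FICC-Seq HEK293 means (exact permutation p = 0.1 for each, the smallest that 3 libraries against 2 allow, adjusted p = 0.13), so that the design could not reach 0.05. Every miCLIP library lay below every FICC-Seq HEK293 library in both isotypes. On other tRNA loci miCLIP had 45.1% ± 3.19 of counts at 53 and 54 (n = 2).

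The remaining miCLIP counts of these tRNAs lay at a few further positions, picked here for their size. In tRNA-Asn-GTT, 195 of 1949 counts (10.0%) lay 3 nt 5′ of position 53, in the T-stem, 73 (3.75%) lay 10 nt 5′ of it and 61 (3.13%) lay 18 nt 5′ of it, which is the middle base of the GTT anticodon. In tRNA-Asp-GTC, 149 of 1781 counts (8.37%) lay 16 nt 5′ of position 53, the last base of the GTC anticodon, 102 (5.73%) lay 3 nt 5′ of 53 and 66 (3.71%) lay 5 nt 5′ of it. The anticodon arm as a whole held 14.7 and 15.1% of asparagine counts and 11.7 and 16.2% of aspartate counts, against means of 1.03% and 1.2% in FICC-Seq HEK293. tRNA-Asp-GTC-2-6 had 123 of its 473 miCLIP counts in the anticodon arm and tRNA-Asn-GTT-1-1 had 118 of 509. At no locus was the anticodon arm the site of the highest miCLIP position.

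Signal in the 5′ leader, which is present only before the precursor is cut, was scarce in FICC-Seq, a description with no test. Its summed share was larger in asparagine than in aspartate tRNAs in every group, but the libraries overlapped in FICC-Seq and iCLIP. In iCLIP HEK293 they ran from 3.45 to 28% for asparagine and from 0 to 16.7% for aspartate. In FICC-Seq HAP1 the highest asparagine leader position lay 1 nt before the gene, with 3 counts. A cDNA recorded there ends at the first base of the gene, so these 3 counts need not come from uncut precursors. The leader held 7 of 1415 asparagine counts in FICC-Seq HEK293 and 12 of 1673 in FICC-Seq HAP1, 23 of 197 (11.7%) and 25 of 246 (10.2%) in iCLIP, and 146 of 1949 (7.49%) in miCLIP. For aspartate it held 3 of 918, 7 of 1302, 12 of 199 (6.03%), 11 of 193 (5.70%) and 41 of 1781 (2.30%). In miCLIP, 135 of the 146 asparagine leader counts fell 4 to 10 nt before the gene, and the highest position was 7 nt before it with 62 counts. They came from 8 of the 9 loci, with 44 at tRNA-Asn-GTT-1-1, 22 each at tRNA-Asn-GTT-2-3 and tRNA-Asn-GTT-2-4, and 0 at tRNA-Asn-GTT-7-1. The 12 bases before these 3 genes are shown with the base 7 nt before the gene in capitals, since the position was shared while the sequences differed:
tRNA-Asn-GTT-1-1: tcgccAacgccc
tRNA-Asn-GTT-2-3: aatgaCaccgaa
tRNA-Asn-GTT-2-4: ctgagTaactgg
The base at that position was a different one in each of these 3 genes, and it was A or C at every other asparagine locus. In iCLIP, tRNA-Asn-GTT-2-3 alone had 25 of its 99 counts in the leader, 18 of them at this position. It held 11 of the 23 asparagine leader counts in iCLIP HEK293 and 14 of the 25 in iCLIP HAP1.

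Among the other tRNAs that carry queuosine, the 12 tRNA-Tyr-GTA loci were higher in FICC-Seq than in iCLIP at 6 loci and lower at 1 in HEK293, and higher at 7 in HAP1. The 2 tRNA-His-GTG loci were higher at none and lower at 1, in HAP1. Of all tested loci, 19.0% were higher and 30.5% lower in HEK293, and 16.4% and 28.6% in HAP1. In HAP1 against HEK293, tRNA-Tyr-GTA was called higher at 1 locus and lower at 2, and tRNA-His-GTG at none. The share of all tested loci was 11.3% in either direction. In miCLIP against FICC-Seq, tRNA-His-GTG was higher at both loci, and tRNA-Tyr-GTA higher at 5 and lower at 7. Here 43.4% of all tested loci were higher and 31.2% lower. Over the 14 libraries, the log2(CPM + 1) of tRNA-Asn-GTT ran most like that of tRNA-Ile-AAT (Pearson r = 0.957) and tRNA-Tyr-GTA (r = 0.927), and that of tRNA-Asp-GTC most like tRNA-Arg-CCT (r = 0.954) and tRNA-Asn-GTT (r = 0.910), with tRNA-His-GTG at -0.13 and 0.058. These correlations are descriptions over libraries that share methods and depth, and they carry no test.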

How the data were processed

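The authors removed PCR duplicates by random barcodes, trimmed adaptors and mapped reads to hg19 with bowtie through the iCount server, keeping reads with 1 mapped place, and deposited whole cDNA counts per position (the sign gives the strand, so the unit is recorded as other). Here absolute counts were summed by position, isotype, locus and library. Position 53 was read from the T-arm sequence. Shares and log2 ratios were compared by exact permutation tests (scipy 1.17.1) with Benjamini-Hochberg adjustment over 13 tests. Loci were tested with limma 3.58.1 (voom weights, TMM) in R 4.3.3, in place of the planned count model, because the deposited signed columns are not recorded as counts. A count model on the summed absolute counts was not run. The scripts were tested on simulated data. Alternatives covered the scaling, the low-count filter, single-count positions, the window, barcode collisions, the replicate block and left-out libraries. Values in every library are given for the isotype sums and the 3 loci per isotype with the highest mean CPM, with tRNA-His-GTG and tRNA-Tyr-GTA as the comparison list and the 2 anticodon groups of highest correlation. Members, lists and tests were chosen with earlier results of these data known. No 2 replicates agreed within sampling noise.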

Additional observations from a re-analysis of the deposited data

How the results depend on the processing

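Of 116 values recomputed under alternatives other than a left-out library, 99 kept their direction and their side of the threshold (or, for counts, stayed within 1.5 times), and of 207 with a library or replicate number left out, 182 did. With position 53 alone, the gap between the isotypes in the method difference was -12.75 points (adjusted p = 0.0325). With single-count positions left out, the aspartate method difference at 58 was -10.15 points (adjusted p = 0.058) and the cell line difference in the log2 ratio of the isotypes turned to -0.02567. Leaving out the locus of highest signal in each isotype gave -0.1577 for the method difference in that ratio and -0.1876 for the cell line difference, and leaving out tRNA-Asn-GTT-1-1 gave -0.005391 for the latter and 0.02438 points for the isotype difference at 53 and 54 in iCLIP. Without tRNA-Asp-GTC-3-1, the aspartate method difference at 58 was -2.909 points (adjusted p = 0.058) and the log2 ratio differences were -0.3126 by method and -0.1224 by cell line. The number of loci called between cell lines was 1 with library totals, with a replicate block and with tRNA loci alone, each time tRNA-Asn-GTT-2-1, and the number called between methods in HEK293 was 5 with median-of-ratios factors. DESeq2 with its size factors was not run. The median-of-ratios factors, limma without voom weights, single left-out libraries and the omission of tRNA-Asn-GTT-1-1 or tRNA-Asp-GTC-3-1 were added after seeing the data. The cause of these changes was not tested.

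Replicate numbers were not taken to pair libraries, because the labels tie no number to a shared day or culture. Also, not every same-numbered pair of FICC-Seq and iCLIP libraries deviated together at a correlation over 0.1 (0.127, 0.125 and 0.061 in HEK293, 0.073, 0.284 and 0.146 in HAP1). All of these correlations were positive, however, and 10 of the 12 libraries correlated best with their own number. The numbers may therefore still mark pairs. With a replicate block the method differences were 41.85 points (asparagine, 53 and 54), 51.8 (aspartate) and -7.46 (aspartate, 58), each with p = 0.03125, the smallest the exact paired permutation allows (adjusted p = 0.0729).

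With a replicate or library left out, these differences ranged from 33.35 to 51.76, from 47.79 to 58.45 and from -9.099 to -6.194, and without a replicate number the smallest possible exact p was 0.05556. The isotype difference at 53 and 54 in iCLIP ranged from -5.678 to 1.306 (0.2253 without replicate 3), the gap between isotypes from -14.44 to -6.691, and the log2 ratio differences from 0.2311 to 0.4123 by method and from -0.03044 to 0.1067 by cell line. Called loci ranged from 2 to 9 in HEK293, from 0 to 8 in HAP1 and from 0 to 1 between lines. Depth limits iCLIP most, with 50 to 99 counts per isotype and library.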
